A study of Mus musculus with 28 samples.

Results

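Clec9a, Xcr1, Dnase1l3, Irf8, Batf3 and Flt3 are genes by which conventional type 1 dendritic cells (cDC1), the dendritic cells that cross-present antigen, are commonly recognised. They were chosen by name, as the rows of the expression tables that carry these 6 symbols. Of the 6 genes, 5 had a row among the 10523 genes measured in macrophages sorted from kidney, and 3 (Clec9a, Dnase1l3 and Irf8) had a row among the 12315 genes measured in whole kidney. Flt3 in either tissue, and Xcr1 and Batf3 in whole kidney, are not analysed here.

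The libraries came from female C57BL/6 mice, littermates aged 7 to 9 months, of 4 genotypes: wild-type (WT), Rhbdf2-/-, Fcgr2b-/- (FcR2b-/- in the genotype label) and Fcgr2b-/- Rhbdf2-/-, called double mutant here. Rhbdf2 encodes iRhom2, an inactive rhomboid protein needed for the surface protease ADAM17, and Fcgr2b encodes the inhibitory IgG receptor whose loss predisposes mice to lupus nephritis. RNA was sequenced from whole kidney of perfused mice (16 libraries, 4 per genotype) and from kidney cells sorted as CD45 positive, F4/80 high, CD11b positive and negative for Ly6G and Ly6C (12 libraries, 3 per genotype). The gate held no CD11c, XCR1 or MHC class II. No cell-type-restricted deletion is named in the labels, so all cells of a mutant mouse carried its genotype. The listed genes received 29016112 to 41620361 reads per kidney library and 30856147 to 34868411 per macrophage library. Levels are CPM, the read count scaled to the size of the library, and 3 reads, taken here as the floor of detection, were worth 0.0832 to 0.0988 CPM in macrophages and 0.0677 to 0.106 CPM in kidney.

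cDC1 arise from bone marrow precursors that need the growth factor receptor FLT3. The transcription factors IRF8 and BATF3 act together at composite DNA elements to set up and keep the cDC1 state. Mature cDC1 carry CLEC9A, a C-type lectin that binds actin filaments exposed on dead cells and steers their antigen to cross-presentation, and XCR1, the receptor for the chemokine XCL1 that CD8 T cells and NK cells release. DNASE1L3 is a secreted nuclease that digests DNA in microparticles released by dying cells. It is made by dendritic cells and some macrophages, and its loss leads to antibodies against DNA and lupus in mice and people. IRF8 is also used by macrophages, monocytes and B cells, so of the 6 genes Clec9a and Xcr1 are the ones most restricted to cDC1.

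Of the 6 members, 5 matched the RefSeq promoter table (all but Dnase1l3). Their promoters differed in base composition, and the 250 bases before the transcription start of 4 of them are printed for that reason, 5' to 3' on the gene's strand, from RefSeq on GRCm38.p6. Capitals mark each CG dinucleotide, the site of most DNA methylation in mammals. The stretches are chr6:129408612-129408861 on the plus strand for Clec9a, chr9:123862030-123862279 on the minus strand for Xcr1, chr8:120736108-120736357 on the plus strand for Irf8 and chr1:191098164-191098413 on the plus strand for Batf3.
Clec9a: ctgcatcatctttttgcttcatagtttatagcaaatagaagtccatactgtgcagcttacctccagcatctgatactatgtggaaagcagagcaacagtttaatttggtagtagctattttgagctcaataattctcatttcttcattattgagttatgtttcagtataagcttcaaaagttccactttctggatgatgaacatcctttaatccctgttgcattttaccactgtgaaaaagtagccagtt
Xcr1: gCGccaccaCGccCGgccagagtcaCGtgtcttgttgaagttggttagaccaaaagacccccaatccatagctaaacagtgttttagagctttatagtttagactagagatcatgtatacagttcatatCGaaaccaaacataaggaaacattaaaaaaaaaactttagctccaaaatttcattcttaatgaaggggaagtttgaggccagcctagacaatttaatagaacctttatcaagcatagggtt
Irf8: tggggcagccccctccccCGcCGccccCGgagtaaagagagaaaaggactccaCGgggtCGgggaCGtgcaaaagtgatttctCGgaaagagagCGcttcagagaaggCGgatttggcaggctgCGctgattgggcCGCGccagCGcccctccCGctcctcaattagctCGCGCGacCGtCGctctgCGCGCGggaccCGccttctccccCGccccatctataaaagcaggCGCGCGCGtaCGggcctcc
Batf3: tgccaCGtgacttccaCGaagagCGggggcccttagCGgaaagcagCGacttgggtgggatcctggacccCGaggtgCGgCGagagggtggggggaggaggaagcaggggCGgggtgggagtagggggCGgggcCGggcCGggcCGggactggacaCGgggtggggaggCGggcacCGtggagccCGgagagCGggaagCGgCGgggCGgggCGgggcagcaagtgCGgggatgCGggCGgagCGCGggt

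The Clec9a promoter held 0 CG dinucleotides at a G+C content of 35.6%, and the Xcr1 promoter held 5 at 38.8%. The Irf8 promoter held 29 at 67.2%, and the Batf3 promoter held 27 at 76.0%. The median over all 32851 promoters of the table was 6, and 93.2% of them had fewer CG dinucleotides than Irf8 and 91.4% fewer than Batf3. The Flt3 promoter held 13 at 59.2%, more than 68.5% of all promoters, and the Xcr1 promoter was near the median. Of 4 motifs searched on both strands, the AP-1 form TGANTCA was in 6.75% of all promoters, the interferon-stimulated response element in 2.98%, the ETS and IRF composite element in 2.3%, and AANNGAAA, which both of these elements contain, in 21.3%. None of these stood in the 4 promoters printed, which says only that they are not in these windows.

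In sorted macrophages, each measured member had its lowest group mean in Fcgr2b-/- libraries, and 4 of 5 were higher again in the double mutant. Clec9a, Xcr1 and Dnase1l3 differed most, by 6.21- to 13.4-fold of the group means between WT and Fcgr2b-/- and by 12.5- to 25.4-fold between Fcgr2b-/- and double-mutant cells. Irf8 and Batf3 fell less, by 2.45- and 2.48-fold. A member was called when the Benjamini-Hochberg adjusted p of limma's moderated test on log2(CPM+1), over all genes of the tissue, was below 0.05. In Fcgr2b-/- against WT cells 5 of 5 measured members were lower, where 28.5% of all genes were called lower, 24.2% higher and 52.8% in either direction. In the double mutant against Fcgr2b-/-, 4 of 5 were higher, where 15.8% of all genes were called higher, 13.8% lower and 29.6% in either direction. Both shares are large, since many genes differ between these genotypes. In bulk RNA, fewer cells of a type and less RNA per cell cannot be told apart.

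**Figure D1:**
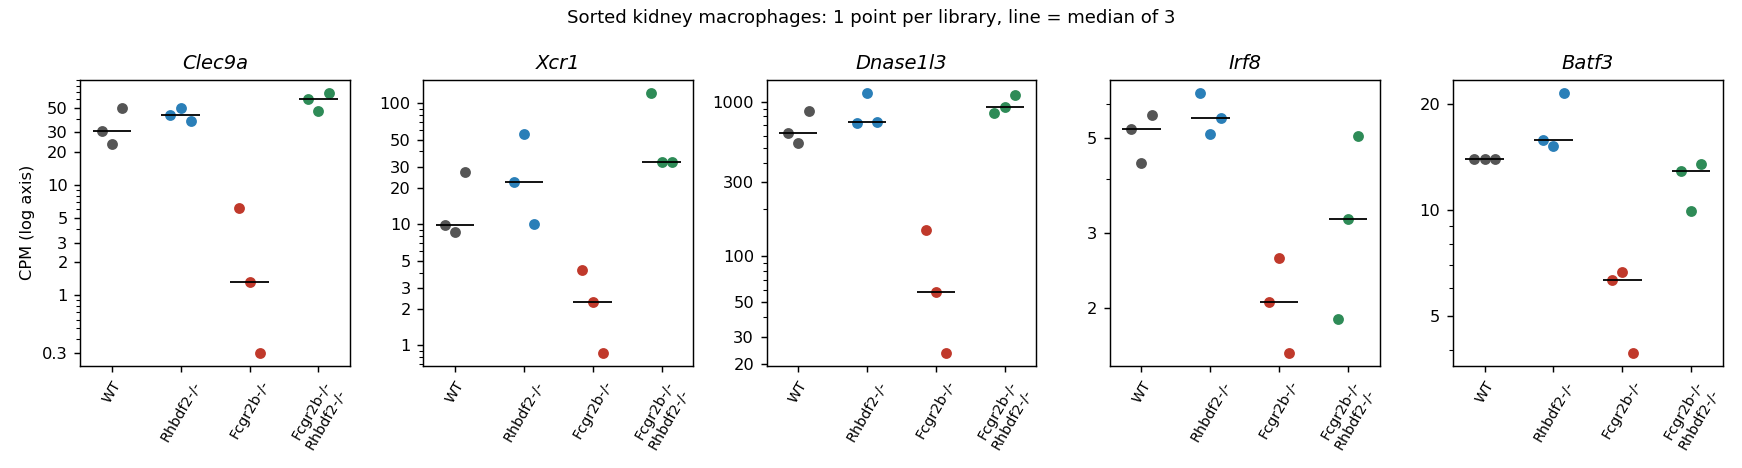
CPM (log axes, a scale of its own for each gene) of 5 genes in 12 libraries of sorted kidney macrophages; each point is 1 library and each line the median of 3. The Fcgr2b-/- points lie below all WT points for each gene, and the double-mutant points lie above all Fcgr2b-/- points for each gene but Irf8. The share of all genes whose libraries separate in this way was not counted, so the separation is not particular to these genes by this figure.

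Clec9a (chr6:129408862-129424764, plus strand, mm10, protein-coding), the receptor for dead cells, measured 30.7, 23.7 and 50.0 CPM in WT replicates 1 to 3, and 42.8, 50.1 and 38.0 CPM in Rhbdf2-/- replicates 1 to 3. In Fcgr2b-/- cells it measured 6.17, 1.32 and 0.302 CPM, the last from 9 reads, and in double-mutant cells 60.7, 46.5 and 68.8 CPM. The Fcgr2b-/- libraries stood apart from all others and also from each other, while WT and double-mutant values overlapped. Clec9a fell by 3.62 ± 0.48 (SE) on the log2(CPM+1) scale in Fcgr2b-/- against WT cells (limma, adjusted p = 9.16e-05, 3 of 3 libraries below all WT libraries). It was higher by 4.40 ± 0.48 in double-mutant than in Fcgr2b-/- cells (limma, adjusted p = 0.000157). Double-mutant and WT cells differed by 0.79, with a 95% interval of -0.25 to 1.82 that includes 0 (limma, adjusted p = 0.262).

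Clec9a lies in a cluster of C-type lectin genes, and 184 of its exon bases are shared, on the same strand, with Clec1b, which encodes the podoplanin receptor CLEC-2. Reads in those bases could be counted for either gene. Clec1b went the other way from Clec9a in Fcgr2b-/- against WT cells: it measured 2.06 ± 0.708 CPM in WT and 4.06 ± 0.956 CPM in Fcgr2b-/- cells (SD, n = 3), a rise of 0.73 ± 0.27 (limma, adjusted p = 0.037). At 18.4 ± 4.95 CPM in double-mutant cells it was higher than in Fcgr2b-/- cells by 1.92 ± 0.27 (adjusted p = 0.000547), as Clec9a was.

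Xcr1 (chr9:123852315-123862029, minus strand, mm10, protein-coding), the receptor for XCL1, varied widely among libraries of the same genotype. It measured 9.88, 8.71 and 27.2 CPM in WT replicates 1 to 3, 22.5, 55.5 and 10.1 CPM in Rhbdf2-/- replicates, 4.20, 2.30 and 0.875 CPM in Fcgr2b-/- replicates, and 122, 32.6 and 32.6 CPM in double-mutant replicates. The Fcgr2b-/- libraries were again below all others, and double-mutant replicate 1 was far above the rest of its group. Xcr1 fell by 2.18 ± 0.66 on the log2(CPM+1) scale in Fcgr2b-/- against WT cells (limma, adjusted p = 0.0149). This call was lost without WT replicate 3 (-1.69, adjusted p = 0.059), without Fcgr2b-/- replicate 3 (-1.80, adjusted p = 0.0652) and with voom on recovered reads (-2.67, adjusted p = 0.167). The rise in double-mutant against Fcgr2b-/- cells was 4.02 ± 0.66 (limma, adjusted p = 0.00117) and was 3.40 without double-mutant replicate 1 (adjusted p = 0.00379).

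The 2 libraries highest in Xcr1 were also those with the highest summed level of 15 measured T and NK cell markers. That sum was 1080 CPM in double-mutant replicate 1 and 1030 CPM in Rhbdf2-/- replicate 2, and 337 to 508 CPM in WT libraries. Clec9a was highest in double-mutant replicate 3, at 68.8 CPM, where the T and NK sum was 408 CPM, within the WT range.

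Dnase1l3 (chr14:7964533-7994573, minus strand, mm10, protein-coding), the nuclease gene, was the most abundant member per kilobase of exon, at a WT mean of 131 CPM per kilobase beside 19.6 for Batf3, 10.6 for Clec9a, 3.43 for Xcr1 and 0.723 for Irf8. It measured 623, 539 and 863 CPM in WT, 730, 1140 and 742 CPM in Rhbdf2-/-, 147, 58.1 and 23.7 CPM in Fcgr2b-/- and 838, 917 and 1110 CPM in double-mutant replicates 1 to 3. The lowest library outside Fcgr2b-/- was thus well above the highest Fcgr2b-/- library. Dnase1l3 fell by 3.46 ± 0.47 on the log2(CPM+1) scale in Fcgr2b-/- against WT cells (limma, adjusted p = 0.000115) and rose by 3.98 ± 0.47 in double-mutant against Fcgr2b-/- cells (limma, adjusted p = 0.000238). Against WT the double mutant differed by 0.52 (95% interval -0.51 to 1.55, limma, adjusted p = 0.463).

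Irf8 (chr8:120736358-120756694, plus strand, mm10, protein-coding), which encodes the factor that sets the cDC1 lineage, lay in the double mutant between its WT and Fcgr2b-/- levels. It measured 5.26, 4.38 and 5.66 CPM in WT, 6.39, 5.10 and 5.58 CPM in Rhbdf2-/-, 2.06, 2.61 and 1.57 CPM in Fcgr2b-/- and 1.88, 3.23 and 5.07 CPM in double-mutant replicates 1 to 3. Double-mutant replicate 1 was within the Fcgr2b-/- range and replicate 3 within the WT range. Irf8 fell by 0.99 ± 0.27 in Fcgr2b-/- against WT cells (limma, adjusted p = 0.00783). The difference of double-mutant from Fcgr2b-/- cells, 0.46 ± 0.27, did not pass (limma, adjusted p = 0.214), but did without double-mutant replicate 1, the library highest in Xcr1 (0.73, adjusted p = 0.0435). Against WT the double mutant differed by -0.53 (95% interval -1.11 to 0.05, adjusted p = 0.177), which did not pass either.

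Batf3 (chr1:191098414-191108943, plus strand, mm10, protein-coding), which encodes the partner of IRF8, measured 14.0 CPM in each WT library, from 461 to 504 reads, which is a narrower spread than counting error usually leaves. It measured 15.8, 15.2 and 21.6 CPM in Rhbdf2-/-, 6.31, 6.68 and 3.93 CPM in Fcgr2b-/- and 12.9, 9.93 and 13.5 CPM in double-mutant replicates 1 to 3. Fcgr2b-/- libraries were below all others, and double-mutant libraries were below all WT libraries by a small margin. Batf3 fell by 1.2 ± 0.2 in Fcgr2b-/- against WT cells (limma, adjusted p = 0.000447) and rose by 1.0 ± 0.2 in double-mutant against Fcgr2b-/- cells (limma, adjusted p = 0.00352). Double-mutant and WT cells differed by -0.20 (95% interval -0.64 to 0.23).

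Without an Fcgr2b deletion, the loss of Rhbdf2 moved no member past the threshold. The differences of Rhbdf2-/- from WT cells ranged from 0.14 for Irf8 to 0.77 for Xcr1 (0 of 5 members called in limma, with 0 of 5 at an unadjusted p under 0.05, where 0.019% of all genes were called). With voom on recovered reads and in the authors' deposited table this count was also 0. The interval for Clec9a, -0.66 to 1.41, still allows a change of more than 2-fold. The effect of Rhbdf2 loss differed between the Fcgr2b-/- and the Fcgr2b-intact background for 3 of 5 members by the interaction term of the fit, each time upwards, where 11.9% of all genes were called and 6.03% upwards. The difference of effects was 4.02 ± 0.67 for Clec9a (limma, adjusted p = 0.00708), 3.62 ± 0.67 for Dnase1l3 (adjusted p = 0.0094) and 3.25 ± 0.93 for Xcr1 (adjusted p = 0.0412). For Xcr1 it lost its call with voom (adjusted p = 0.172) and when any of 9 of the 12 libraries was left out (adjusted p 0.054 to 0.0948, lost for each library but Fcgr2b-/- replicate 1, Rhbdf2-/- replicate 2 and double-mutant replicate 2). It was 0.71 ± 0.28 for Batf3 (adjusted p = 0.126) and 0.33 ± 0.38 for Irf8 (adjusted p = 0.624), and neither passed.

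In the double mutant, 0 of 5 members were called against WT, where 18.5% of all genes were, and 0 of 5 against Rhbdf2-/- cells, where 18.2% were. At an unadjusted p under 0.05 there was 1 member against WT (Xcr1) and 2 against Rhbdf2-/- (Irf8 and Batf3). Xcr1 was higher than in WT by 1.85 ± 0.66 (limma, adjusted p = 0.0692), and by 2.33 (adjusted p = 0.0278) when WT replicate 3 was left out. Irf8 and Batf3 were lower than in Rhbdf2-/- cells by values that did not pass, -0.67 ± 0.27 (adjusted p = 0.0952) and -0.49 ± 0.20 (adjusted p = 0.103), and Irf8 passed when double-mutant replicate 3 was left out (-0.93, adjusted p = 0.0314). The contrasts share groups of libraries, so they are not independent of each other.

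**Figure D2:**
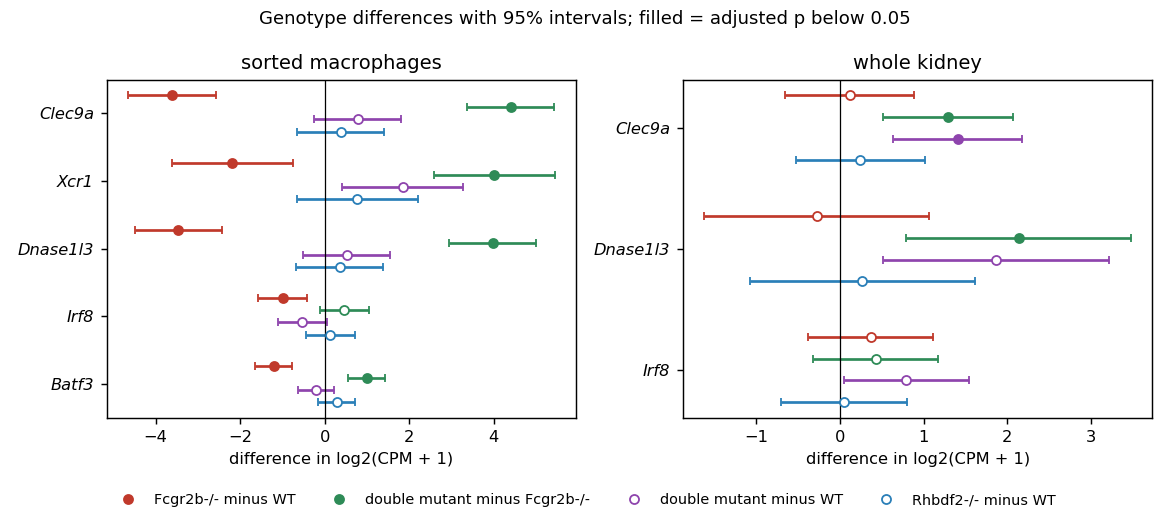
Differences in log2(CPM+1) between genotypes with 95% intervals from limma, in sorted macrophages (left) and whole kidney (right); filled points have an adjusted p below 0.05. In macrophages, Clec9a falls by 3.62 and rises by 4.40 on this scale, while the Irf8 points stay between -0.99 and 0.46; in kidney the called points are Clec9a in 2 contrasts and Dnase1l3 in 1.

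Among themselves, the members were not in fixed proportion. Per kilobase of exon, Dnase1l3 was 11.1 to 14.6 times as abundant as Clec9a in WT macrophages, 10.9 to 14.6 times in Rhbdf2-/-, 8.86 to 12.6 times in double-mutant and 15.3 to 50.3 times in Fcgr2b-/- macrophages. The Fcgr2b-/- ratios lay above all others, so Clec9a was lower there relative to Dnase1l3 as well. Batf3 was 24.4 to 31.7 times as abundant as Irf8 per kilobase in WT cells and 24.7 to 30.4 times in Fcgr2b-/- cells, ranges that overlapped. It was 67.8 times as abundant in double-mutant replicate 1. The Batf3 length in the deposited table is 712 bases, against 1597 for all its exons in GENCODE vM21, so its level per kilobase depends on the gene model.

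Over the 12 macrophage libraries Clec9a and Dnase1l3 had a Pearson r of 0.993 (Spearman rho 0.93) on log2(CPM+1). After the mean of each genotype was taken away the r was 0.951. The spread within a genotype was widest in Fcgr2b-/- cells, where both genes fell from replicate 1 to replicate 3. The libraries had the same order for both genes in WT cells as well, but not in Rhbdf2-/- or double-mutant cells. For Clec9a and Xcr1 the r was 0.886, and 0.592 within genotypes. For Irf8 and Batf3 it was 0.825, and 0.301 within genotypes. Xcr1 and Irf8 had 0.344, and -0.305 within genotypes. These are descriptions over libraries that share genotypes.

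Genes other than the members were ranked by Pearson r with each member over the same 12 libraries, among 10040 genes with a mean of at least 1 CPM. Clec9a and Dnase1l3, at r = 0.993, were more like each other than like any gene named here. Outside the members, Clec9a was most like H2-M3 (r = 0.977), a non-classical MHC class I gene, H2-Eb1 (0.977), which encodes an MHC class II chain, and Tmem229b (0.977). Dnase1l3 was, again outside the members, most like Tifab (0.979), H2-Eb1 (0.974) and H2-M3 (0.974). Xcr1 was most like Tomm34 (0.955), Vamp5 (0.951) and the MHC class I gene H2-T22 (0.948). Irf8 was most like Men1 (0.97), Hps4 (0.966) and Nfatc1 (0.964), and Batf3 most like Eng (0.98), Plod3 (0.971) and Pcnt (0.97). MHC genes were thus among those named for Clec9a, Dnase1l3 and Xcr1 and not among those named for Irf8 and Batf3.

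Other genes linked to cDC1 did not move as a block. Of 31 listed, 19 were measured, and in Fcgr2b-/- against WT cells 7 were lower, 4 higher and 8 not called, with a median of -0.55 beside -0.09 for all genes. Of all genes, 28.5% were called lower and 24.2% higher there, the shares to set beside each macrophage list below. Tlr12, an endosomal receptor for profilin of parasites, fell by 2.31 ± 0.24 from 100 to 19.5 CPM (limma, adjusted p = 2.3e-05), and Cadm1, an adhesion molecule, by 1.08 ± 0.12 from 366 to 173 CPM. Itgae, the CD103 integrin chain of tissue cDC1, fell by 1.44 ± 0.56 from 4.02 to 0.825 CPM (limma, adjusted p = 0.0477). Id2 and Nfil3, regulators needed for cDC1 development that many other cells also use, went the other way, up by 1.87 ± 0.23 and 3.01 ± 0.40. Wdfy4, which cDC1 need for cross-presentation, measured 64.7 CPM in WT and 54.9 CPM in Fcgr2b-/- cells (-0.25 ± 0.16, adjusted p = 0.201), and Cd24a 35.9 and 26.4 CPM (-0.26 ± 0.54, adjusted p = 0.708).

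In double-mutant against Fcgr2b-/- cells, 5 of the 19 were higher and 3 lower, with a median of 0.72 beside 0.04 for all genes. Of all genes, 15.8% were called higher and 13.8% lower there, again the shares for each macrophage list below. Cadm1 rose by 1.5 ± 0.12 and Tlr12 by 1.74 ± 0.24, and Nfil3 fell by 2.45 and Id2 by 1.21. Cd24a fell by 1.69 (limma, adjusted p = 0.0346), to 8.30 CPM. The list was assembled with results of these libraries already known, so its counts are a description.

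Genes of the wider dendritic cell lineage leaned further down: 11 of 16 measured were lower and 1 (Relb) higher in Fcgr2b-/- against WT cells, with a median of -0.77, and 8 of 16 were higher and 0 lower in the double mutant against Fcgr2b-/- cells. Zbtb46, a factor of the conventional dendritic lineage, measured 2.74 CPM in WT, 0.399 CPM in Fcgr2b-/- and 1.85 CPM in double-mutant cells, a fall of 1.42 ± 0.29 and a rise of 0.97. Ciita, the master activator of MHC class II genes, fell by 2.49 ± 0.42 and rose by 1.93. Dpp4, a surface peptidase of cDC1, fell by 1.39 ± 0.29 and rose by 1.84, and Slamf7, an adhesion receptor of leukocytes, fell by 3.39 ± 0.38 from 269 to 27.7 CPM and rose by 1.66 to 81.0 CPM, below WT by a called difference (-1.73, adjusted p = 0.012).

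Among partners and relatives of Irf8 and Batf3, 11 of 25 measured were lower and 7 higher in Fcgr2b-/- against WT cells, and 10 were higher and 4 lower in the double mutant against Fcgr2b-/-. Runx1, a blood cell transcription factor, fell by 1.33 ± 0.12 and rose by 0.70. Irf4, the IRF8 relative of cDC2, fell by 1.36 ± 0.33 from 10.4 to 3.65 CPM (limma, adjusted p = 0.00439), whereas Batf, a relative of Batf3 that can act in its place, rose by 0.79 ± 0.16 from 21.4 to 37.3 CPM.

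Of 20 measured growth factor genes around Flt3, 6 were lower and 4 higher in Fcgr2b-/- against WT cells, near the shares of all genes, and 6 higher and 4 lower in the double mutant against Fcgr2b-/-. Csf2rb and Csf2rb2, receptor chains for IL-3, rose by 0.97 ± 0.12 and 1.26 ± 0.11. Of the genes for ligands and signalling of CLEC9A and XCR1, actin genes among them, 7 of 15 measured were higher and 2 lower in Fcgr2b-/- against WT cells. Actg1, which encodes an actin like the one CLEC9A binds, rose by 1.5 ± 0.16, and Syk, the kinase that CLEC9A engages, was not called (0.19 ± 0.13, adjusted p = 0.227). In the double mutant against Fcgr2b-/- cells 3 were higher and 3 lower.

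Of 30 measured genes of the cross-presentation machinery, 11 were lower and 8 higher in Fcgr2b-/- against WT cells (median -0.13), where 28.5% of all genes were lower and 24.2% higher. Between the double mutant and Fcgr2b-/- cells 10 were higher and 4 lower, where 15.8% and 13.8% of all genes were. H2-K1, a classical MHC class I gene, fell by 1.82 ± 0.16 from 2560 to 731 CPM, and Tap1, a chain of the peptide transporter, by 2.23 ± 0.30 from 185 to 37.9 CPM, with rises of 1.69 and 1.72 in the double mutant. B2m, the light chain of MHC class I, was not called in Fcgr2b-/- against WT cells (960 CPM in WT and 1000 CPM in Fcgr2b-/-, 0.07 ± 0.15, adjusted p = 0.7), and neither were Tapbp, Erap1 and Pdia3, which also act in peptide loading. Ifi30, a lysosomal thiol reductase, rose by 2.44 ± 0.20 from 70.9 to 389 CPM, and Sec61b, a channel subunit of the endoplasmic reticulum, by 1.2 ± 0.13.

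Of 10 nuclease genes measured beside Dnase1l3, 4 were lower and 3 higher in Fcgr2b-/- against WT cells. Dnase1l2 fell by 1.40 ± 0.23 from 3.02 to 0.527 CPM, and Plbd1, a phospholipase B-like gene that the list holds although it is not known as a nuclease, fell by 1.12 ± 0.16. Dnase2a, the lysosomal DNase of macrophages, rose by 0.71 ± 0.12 from 80.3 to 132 CPM (limma, adjusted p = 0.000539) and remained higher than WT in the double mutant by 0.81 (adjusted p = 0.00204). Dnase1l3 and Dnase2a, which act outside cells and in the lysosome, thus went opposite ways in Fcgr2b-/- cells.

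Among 17 measured C-type lectin relatives of Clec9a, 11 were higher and 2 lower in Fcgr2b-/- against WT cells, with a median of 0.73. Clec4e, which encodes the receptor Mincle, rose by 6.39 and its neighbour Clec4d by 5.59. Between the double mutant and Fcgr2b-/- cells 4 of the 17 were higher and 4 lower, with a median of 0.31, and Clec4e fell by 2.71 and Clec4d by 2.65.

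Resident macrophage markers were read at high levels in every sorted library. The summed level of 20 measured resident macrophage markers was 152000 to 221000 CPM in WT, 173000 to 218000 CPM in Rhbdf2-/-, 106000 to 133000 CPM in Fcgr2b-/- and 172000 to 231000 CPM in double-mutant cells. Most of this sum was Cd74, the MHC class II invariant chain, which dendritic and B cells also make. Cd74 was 79.2 to 80.0% of the sum in WT and 40.9 to 57.3% in Fcgr2b-/- cells. Without it, in a sum chosen after its values were seen, the other 19 markers were at 31500 to 44000 CPM in WT, 36300 to 39500 CPM in Rhbdf2-/-, 56600 to 76400 CPM in Fcgr2b-/- and 51600 to 58200 CPM in double-mutant cells, so the order of WT and Fcgr2b-/- was turned. C1qa, a complement gene that marks them, measured 2520 CPM in WT and 3290 CPM in Fcgr2b-/- cells, and Cx3cr1, their chemokine receptor, 1890 and 1550 CPM (not called). Adgre1, which encodes F4/80, is not analysed here. In Fcgr2b-/- against WT cells 11 of the 20 were higher and 2 lower, so the sum was lower while the mean log2(CPM+1) of the list was higher, at 9.65 to 10.18 against 8.97 to 9.16.

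Markers of cells other than cDC1 also moved with the members. Of 7 measured B cell markers, 6 were lower in Fcgr2b-/- against WT cells (summed levels 410 to 630 against 1040 to 1300 CPM, and 187 to 204 against 236 to 286 CPM without Ighm, which made up most of the sum), and Cd79a, a chain of the B cell receptor complex, measured 8.17 CPM in WT and 0.236 CPM in Fcgr2b-/- cells. Of 15 T and NK cell markers 1 (Cd4) was lower (summed levels 110 to 182 against 337 to 508 CPM). Without Cd4 the sums were 79 to 131 against 125 to 328 CPM, ranges that overlap. In the double mutant (408 to 1080 CPM, and 179 to 923 CPM without Cd4) 9 of 15 were higher than in Fcgr2b-/- cells. Cd3e measured 18.5, 4.93 and 39.7 CPM in WT, Fcgr2b-/- and double-mutant cells, and Cd3g 16.8, 5.64 and 32.5 CPM. Of 15 tubule markers 12 were lower in Fcgr2b-/- against WT cells (1430 to 2900 against 2800 to 9550 CPM), and the double mutant was at 1410 to 3510 CPM. Lrp2 measured 55.3, 15.2 and 21.0 CPM, Slc34a1 380, 138 and 158 CPM, and Umod 2960, 487 and 695 CPM in those genotypes. Of 4 endothelial markers 2 (Eng and Esam) were lower (11.0 to 35.2 against 43.4 to 54.8 CPM) and 3 were higher in the double mutant (76.0 to 120 CPM) than in Fcgr2b-/- cells, with Pecam1 at 21.5, 18.1 and 68.7 CPM. The 1 neutrophil marker measured, Csf3r, was not called in Fcgr2b-/- against WT and was higher in the double mutant than in Fcgr2b-/- cells. The part of these cells in the members' differences was not tested.

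Each list of markers of neighbouring dendritic cell types had more genes called lower than higher in Fcgr2b-/- against WT cells. Of all genes, 28.5% were called lower and 24.2% higher there. Of 8 measured cDC2 markers, 5 were lower and 2 higher in Fcgr2b-/- against WT cells, and Mgl2 fell by 4.49 ± 0.47 from 1040 to 53.7 CPM and was still below WT in the double mutant (-2.64, adjusted p = 0.0051). Clec10a measured 17.9 CPM in WT and 20.0 CPM in Fcgr2b-/- cells and was not called. Of 11 plasmacytoid dendritic cell markers, 4 were lower and 2 higher, and Siglech measured 3.84 CPM in WT, 0.605 CPM in Fcgr2b-/- and 0.727 CPM in double-mutant cells. Of 15 markers of mature migratory dendritic cells, 5 were lower and 2 higher in Fcgr2b-/- against WT, while 9 were higher and 0 lower in the double mutant against Fcgr2b-/-. Ccr7, the receptor that leads dendritic cells to lymph nodes, measured 3.01, 0.513 and 5.69 CPM in WT, Fcgr2b-/- and double-mutant cells, and the chemokine gene Ccl22 1.94, 1.24 and 4.75 CPM. In Fcgr2b-/- against WT cells 7 of 15 monocyte markers were higher and 0 lower (1520 to 2150 against 634 to 1380 CPM), with Ccr2 at 529 and 775 CPM and Plac8 at 4.97 and 11.9 CPM, neither called. Of 16 genes induced by cell handling 8 were higher and 0 lower (5970 to 8000 against 1620 to 4780 CPM), with the immediate early gene Fos at 231 and 1940 CPM. Their part in the members' differences was not tested.

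**Figure D3:**
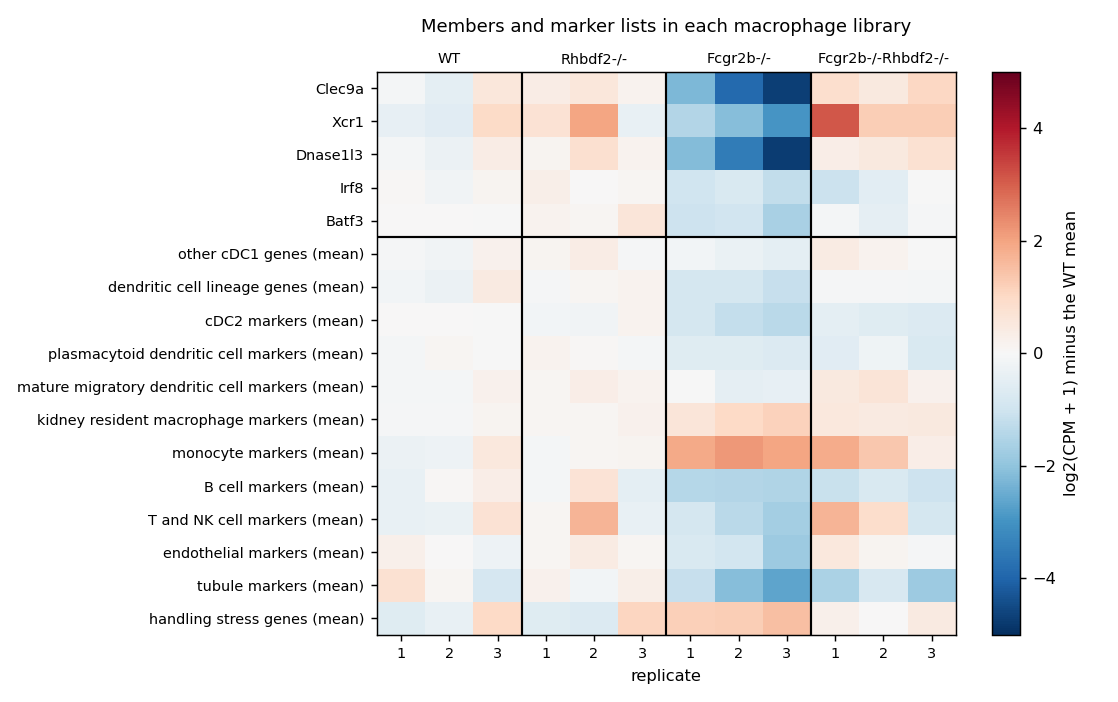
Log2(CPM+1) of the members, and mean log2(CPM+1) of marker lists, in each of 12 macrophage libraries as the difference from the WT mean (colour scale from -5 to 5). In the 3 Fcgr2b-/- columns the 5 members are blue, Clec9a and Dnase1l3 darkest in replicate 3, the B cell, T and NK cell, endothelial and tubule rows are also blue, and the monocyte and handling stress rows are red.

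In whole kidney the members were low and their pattern was another: no fall was called in Fcgr2b-/- mice, and the high values were those of some double-mutant mice. Of 3 measured members, 0 were called in Fcgr2b-/- against WT kidney, where 60.3% of all genes were, 29.5% higher and 30.8% lower (limma, 0 also at an unadjusted p under 0.05, and 0 in voom and in the authors' deposited table). In the double mutant against Fcgr2b-/- kidney 2 of 3 were higher, where 22.5% of all genes were called higher, 22.8% lower and 45.3% in either direction. Against WT kidney 1 of 3 was higher, where 4.52% were called higher, 2.77% lower and 7.29% in either direction. Kidney and macrophage values were normalised separately, so no level is compared between them. In kidney each genotype had a sequencing lane of its own, and an effect of the lane cannot be told apart from one of the genotype.

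Clec9a measured 2.71, 2.31, 2.6 and 2.77 CPM in WT kidney replicates 1 to 4 and 2.62, 2.49, 4.16 and 4.03 CPM in Rhbdf2-/- kidney. It measured 4.15, 1.44, 3.67 and 2.95 CPM in Fcgr2b-/- and 5.44, 11.8, 20.1 and 3.81 CPM in double-mutant kidney. The double-mutant libraries were all above WT and spread over the widest range. Clec9a was higher in double-mutant than in WT kidney by 1.41 ± 0.36 (limma, adjusted p = 0.0325) and than in Fcgr2b-/- kidney by 1.29 ± 0.36 (limma, adjusted p = 0.00943). The first of these calls was lost when any WT library, or double-mutant replicate 2 or 3, was left out (adjusted p 0.0648 to 0.104), and with voom (adjusted p = 0.0694). Both calls were lost when the limma fit held only the groups compared (1.41, adjusted p = 0.0626 against WT, and 1.29, adjusted p = 0.0632 against Fcgr2b-/-).

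Dnase1l3 measured 1.68, 2.25, 2.55 and 1.14 CPM in WT, 1.63, 1.10, 3.54 and 4.65 CPM in Rhbdf2-/-, 2.43, 0.481, 2.03 and 1.01 CPM in Fcgr2b-/- and 4.56, 16.0, 42.7 and 1.80 CPM in double-mutant kidney. Double-mutant replicate 3 was the highest of all kidneys and replicate 4 was within the WT range. Dnase1l3 was higher in double-mutant than in Fcgr2b-/- kidney by 2.14 ± 0.63 (limma, adjusted p = 0.0129), a call lost with only the groups compared in the fit (2.14, adjusted p = 0.0674) and with voom (2.96, adjusted p = 0.0643). Its difference from WT, 1.86 ± 0.63, did not pass (limma, adjusted p = 0.0871), while the authors' deposited table gives 3.12 with an FDR of 0.0274.

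Irf8 measured 2.86, 2.95, 4.49 and 3.89 CPM in WT, 3.36, 2.85, 3.75 and 4.90 CPM in Rhbdf2-/-, 6.72, 3.11, 7.06 and 3.42 CPM in Fcgr2b-/- and 5.82, 9.34, 13.8 and 2.54 CPM in double-mutant kidney. All groups overlapped. The difference of double-mutant from WT kidney was 0.79 ± 0.35 (limma, adjusted p = 0.182) and that from Fcgr2b-/- kidney 0.43 ± 0.35 (adjusted p = 0.336), and neither passed.

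**Figure D4:**
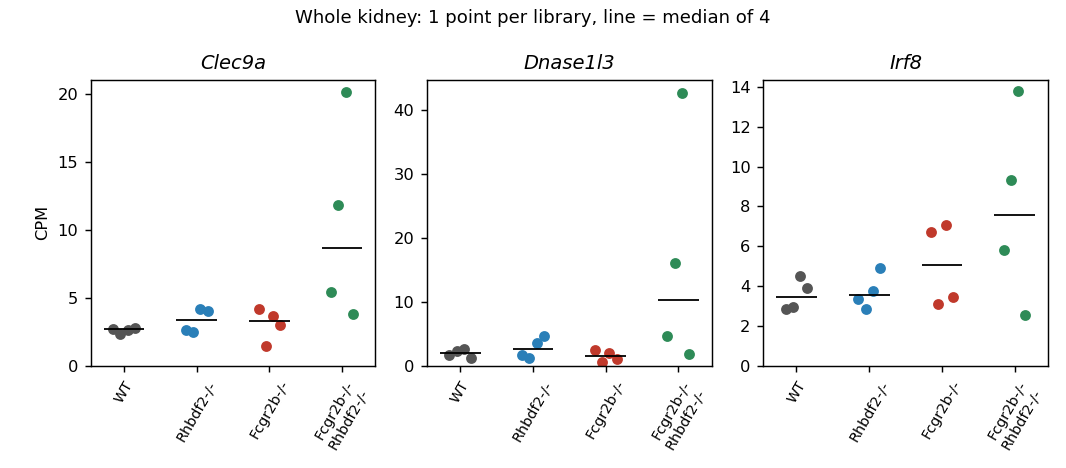
CPM of Clec9a, Dnase1l3 and Irf8 in 16 whole kidney libraries (linear axes from 0); each point is 1 library and each line the median of 4. The double-mutant libraries spread from 3.81 to 20.1 CPM for Clec9a and from 1.80 to 42.7 CPM for Dnase1l3, and the lowest of them lies near the WT points.

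Double-mutant replicate 4 was the lowest of its group for every measured member, though for Clec9a it was near replicate 1. Each library was left out in turn, and the results without replicate 4 are given here. It was singled out by its low values in these same genes, so these results are a description and not a test. All 3 measured members were then higher than in WT (Clec9a 1.74, adjusted p = 0.00255, Dnase1l3 2.49, adjusted p = 0.00701, Irf8 1.17, adjusted p = 0.0126) and 3 of 3 were higher than in Fcgr2b-/- kidney, with Irf8 at 0.81 (adjusted p = 0.0357). With it, 0 of 3 were called against Rhbdf2-/- kidney, where 3.5% of all genes were, with Clec9a at 1.17 ± 0.36 (adjusted p = 0.0762), and without it 3 of 3. With all libraries, 2 members, Clec9a and Dnase1l3, had an unadjusted p under 0.05 against Rhbdf2-/- kidney. When double-mutant replicate 2 or 3 was left out instead, 0 of 3 members were called against WT. The shares of all genes called without replicate 4 are not reported here, so the counts without it have no share beside them.

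The 4 double-mutant kidneys kept the same order for every member, replicate 3 above replicate 2, replicate 1 and replicate 4. The summed level of 9 measured T and NK cell markers had that order as well, at 223, 97.7, 48.0 and 13.6 CPM against 10.7 to 16.1 CPM in WT kidney. So did the sum of 18 resident macrophage markers, at 10800, 6390, 4220 and 2720 CPM against 2010 to 2260 CPM in WT. Cd74 alone was 6760 CPM of the sum in replicate 3 and 374 CPM in replicate 4, and without it the sum was 4060, 3480, 2790 and 2340 CPM against 1710 to 1900 CPM in WT. In Fcgr2b-/- kidney the macrophage sum was 4640 to 8530 CPM with Cd74 and 3910 to 6670 CPM without it, while Clec9a was 1.44 to 4.15 CPM. The part of these cells in the members' levels was not tested.

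Rhbdf2-/- and WT kidneys were not told apart by any member. The differences were 0.24 ± 0.36 for Clec9a, 0.27 ± 0.63 for Dnase1l3 and 0.05 ± 0.35 for Irf8 (0 of 3 called in limma, 0 at an unadjusted p under 0.05, where 0% of all genes were called, and 0 in voom and in the authors' deposited table). The interaction of the 2 deletions was 1.05 ± 0.51 for Clec9a, 1.86 ± 0.89 for Dnase1l3 and 0.38 ± 0.50 for Irf8 (0 of 3 called in limma and 0 at an unadjusted p under 0.05, where 27.8% of all genes were called). Without double-mutant replicate 4 it was called for Clec9a (1.38, adjusted p = 0.0373) and Dnase1l3 (2.49, adjusted p = 0.0259). That library was singled out by these same genes, so these calls are a description.

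Of the other cDC1 genes, 19 were measured in kidney, and 5 were higher and 5 lower in Fcgr2b-/- against WT kidney. Of all genes, 29.5% were called higher and 30.8% lower there. The median of the list was 0.29 beside -0.01 for all genes. Cd24a, a surface protein that tubule cells also carry, rose by 1.49 ± 0.16 and Itgax, which encodes CD11c, by 1.63 ± 0.46, while Tlr12 fell by 1.27 ± 0.16 and Cd36, a lipid receptor that tubule and endothelial cells also carry, by 0.95 ± 0.14. In the double mutant against Fcgr2b-/- kidney 5 were higher and 1 lower, where 22.5% of all genes were called higher and 22.8% lower. Tlr12 rose by 1.1 ± 0.16, Cd36 by 1.01 ± 0.14 and Sept6 by 0.42 ± 0.13, and Cd24a fell by 0.98. Against WT kidney 3 were higher and 0 lower, where 4.52% of all genes were called higher and 2.77% lower. These were Ly75, the endocytic receptor DEC-205 of cDC1 (1.08 ± 0.27, limma, adjusted p = 0.0282), Tlr3, an endosomal receptor for double-stranded RNA (0.59 ± 0.12, adjusted p = 0.0161), and Itgax (1.61 ± 0.46, adjusted p = 0.0469).

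Over the 16 kidney libraries Clec9a and Dnase1l3 had a Pearson r of 0.962 (Spearman rho 0.753), and 0.952 after the mean of each genotype was taken away. Clec9a and Irf8 had 0.866 and 0.903. Double-mutant replicates 2 and 3 were the highest libraries for each gene. Per kilobase, Dnase1l3 was 0.214 to 0.375 times as abundant as Clec9a in Fcgr2b-/- kidney, 0.264 to 0.626 times in WT, 0.282 to 0.74 times in Rhbdf2-/- and 0.301 to 1.36 times in double-mutant kidney. Within a library such a ratio does not depend on normalisation. All 16 kidney ratios were below all 12 macrophage ratios, the lowest of which was 8.86, and the 2 tissues' libraries were made with different kits.

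**Figure D5:**
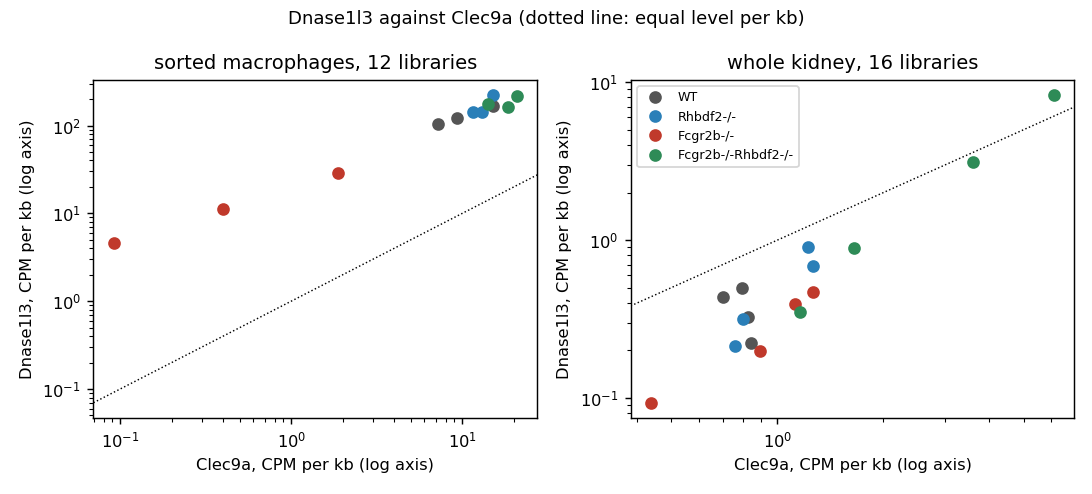
Dnase1l3 against Clec9a in CPM per kilobase (log axes) in each library of sorted macrophages (left) and whole kidney (right); the dotted line marks equal levels. The macrophage libraries all lie above the line, with ratios of 8.86 to 50.3, and in kidney only 1 library, a double mutant at 1.36, lies above it.

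Rhbdf2 and Fcgr2b themselves were read in libraries labelled as lacking them. Rhbdf2 measured 20.7 ± 4.42 CPM in WT and 14.3 ± 1.08 CPM in Rhbdf2-/- macrophages (SD, n = 3), and 12.9 ± 0.0376 and 11.7 ± 0.697 CPM in kidney (SD, n = 4). Its mean was not below WT in the double mutant, which is also labelled as lacking it, at 22.1 ± 4.27 CPM in macrophages and 15.8 ± 4.59 CPM in kidney. Fcgr2b measured 598 ± 101 CPM in WT and 308 ± 65.7 CPM in Fcgr2b-/- macrophages, and 33.5 ± 2.84 and 29.2 ± 4.64 CPM in kidney. Fcgr2b in the double mutant was at 495 ± 49.4 CPM in macrophages and 27.2 ± 9.84 CPM in kidney. The deleted part of either gene is not given in the labels, so these levels do not check the genotypes.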

How the data were processed

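Polyadenylated RNA of 16 whole kidneys (TruSeq kit) and 12 sorted macrophage samples (SMART-Seq v4 kit, which does not mark strand) was read as single reads, per the labels' protocols. Per the file headers, the authors deposited log2 CPM per library and, for each of their comparisons, a log2 fold change, average log2 CPM, F score, p-value and FDR, beside each gene's exon length. The submitters' processing notes name mm10 and GRCm38. The aligner, counter and annotation: not given in the sources used here. Low values were whole multiples of 1 read (100%, tolerance 0.1 read), which gave the read counts. The tables held 0 further sample columns and 0 identical libraries.

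log2(CPM+1) was fitted with limma 3.58.1 (trend) in R 4.3.3, with all 4 genotypes of a tissue in 1 fit and Benjamini-Hochberg adjustment over all genes of the table. This scale understates changes of low genes. The procedure was tested on simulated data. Groups follow the genotype label, since double-mutant titles name only the Rhbdf2 knockout, and replicate numbers follow accession order. No label states that libraries are separate mice, so p describes the spread between libraries, possibly technical in part.

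The members and 19 gene lists were chosen with earlier results of these data known. The rule for genes named was the 3 genes outside the members most correlated with each member, and the first 3 of each cell type list. It also took up to 4 per list with the smallest p in each of 2 macrophage contrasts (in kidney, cDC1 list only). Some genes under this rule are not reported here. Zbtb46, Batf, Syk, Ly75, Tlr3, Relb and Esam were chosen outside this rule, after their values were seen. Alternatives were a pseudocount of 0.25, a filter at a mean of 1 CPM, upper-quartile scaling, voom on the recovered reads, only the groups compared, the authors' table, each library left out, and a replicate block.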

Additional observations from a re-analysis of the deposited data

Results flagged for a closer look

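The effect of Rhbdf2 loss in sorted macrophages differed between mice with and without Fcgr2b for 3 members, by the interaction term of the limma fit over all genes. The difference of effects, double mutant minus Fcgr2b-/- less Rhbdf2-/- minus WT, was 4.02 for Clec9a, 3.62 for Dnase1l3 and 3.25 for Xcr1 on the log2(CPM+1) scale. The Xcr1 value lost its call under several alternatives. No kidney library lay far enough from its group of 4, in any of the 12 groups of values tested, to be singled out, although double-mutant replicate 4 was the lowest of its group for each member.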

How the results depend on the processing

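In macrophages, Clec9a, Dnase1l3 and Batf3 kept direction and call in Fcgr2b-/- against WT and in the double mutant against Fcgr2b-/- under every alternative run, with Clec9a between -4.60 and -3.07 and between 3.85 and 5.41. The count of members called in the double mutant against WT was 0, and 0 to 1 with a library left out, and that against Rhbdf2-/- was 0 to 1. In kidney, the count for the double mutant against Fcgr2b-/- was 1 with voom and 0 with only the groups compared. Against WT it was 0 with voom, 0 with only the groups compared, 2 in the authors' table and 0 to 3 with a library left out. It was 0 to 3 against Rhbdf2-/- and 0 to 2 for the interaction when libraries were left out. The cause was not tested. Differences near 0 changed sign: Clec9a in Fcgr2b-/- against WT kidney was -0.01 without Fcgr2b replicate 1 (range to 0.34 over left-out libraries), and Irf8 in Rhbdf2-/- against WT kidney was -0.06 without Rhbdf2 replicate 4, -0.02 without WT replicate 1 and -0.01 without WT replicate 2 (range to 0.15).

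Letters a and b occur in WT and Rhbdf2-/- macrophage titles. Deviations of same-lettered libraries correlated at 0.242 and -0.054, which does not pair them, and with a replicate block the count for Rhbdf2-/- against WT was 0, with Clec9a at 0.38 and Xcr1 at 0.77. No paired analysis was possible for the other comparisons because their libraries share no label number. Upper-quartile scaling moved no median of all genes by 0.1, but moved the share of calls that were higher from 53.5% to 46% in double-mutant against WT and from 50.5% to 43.6% against Rhbdf2-/- macrophages, and from 62% to 75.5% and from 66.4% to 83.2% in kidney. Depth limits Clec9a most in Fcgr2b-/- macrophages, where it rests on 9 to 215 reads.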
